A study of Zea mays with 18 samples.

Results

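Iron resupply was compared with continued iron deficiency in shoots of maize (Zea mays). The comparison was defined by the library titles: 3 shoot libraries of resupplied plants were set against 3 of deficient plants, 6 of the 18 libraries of the study. The study measured gene expression by RNA-seq in roots and shoots under 3 iron conditions, with 3 biological replicates per group. Every library came from wild-type plants of the inbred line W22. Plants grew hydroponically for 12 days before spending 3 days with iron (sufficient) or without it (deficient and resupplied). The resupplied plants then received 0.1 mM FeSO4-EDTA, whereas the deficient and sufficient plants received new solution of their own kind, and organs were harvested 24 hours later. The deficient plants were therefore a day longer without iron than the resupplied ones had been. The labels give neither the number of plants behind a replicate nor whether root and shoot libraries came from the same plants, so the tests measure the spread between these samples.

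Iron is a cofactor of the photosynthetic electron transport chain and of enzymes of chlorophyll synthesis, and leaves short of iron turn pale. Grasses such as maize release phytosiderophores from the root, take up the iron chelate and carry iron to the shoot bound to small organic chelators. Iron that exceeds immediate use in leaf cells is stored in plastids in ferritin.

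The 6 shoot libraries held 70060269 to 84318039 estimated counts each, and 27122 to 27540 genes had a count in a library. No pair of libraries held identical values. The identifiers follow the W22 annotation, and 0 of the 40690 matched the name table at hand, so genes are given by identifier without a name or function. They are grouped instead by level, by organ and by their behaviour in roots. The organ labels were checked by genes that differed at least 8-fold between sufficient shoots and sufficient roots after adding 0.1 CPM (counts per 1000000 counts of the library). Genes preferring roots held 0.252 to 0.277% of the counts in resupplied shoots, 0.279 to 0.29% in deficient shoots and 0.208 to 0.249% in sufficient shoots, where the choice of genes favours a low share. In bulk tissue, fewer cells of a type and less RNA per cell cannot be told apart.

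Iron resupply changed many shoot genes, most of them by a small amount. Of 26318 genes tested, 2258 (8.58%) were called by edgeR's quasi-likelihood test at a Benjamini-Hochberg adjusted p under 0.05, and "rose" and "fell" refer to this test. The 1278 genes that rose were 4.86% of those tested and the 980 that fell were 3.72%. A change of at least 2-fold was seen for 291 of them (1.11%), of which 128 rose (0.486%) and 163 fell (0.619%). At least 4-fold changes were seen for 42 genes (0.16%), 17 of them higher (0.0646%) and 25 lower (0.095%). At the other end, 1097 of the calls (4.17% of genes tested) had a log2 fold change under 0.5 in size, 733 of them higher (2.79%) and 364 lower (1.38%). The balance of the calls depended on the scaling. With total counts in place of TMM scaling, which shifts the median log2 fold change of all genes to -0.07, 883 genes rose and 1571 fell, and all 980 fallers were among the latter. Omitting any 1 of the 6 libraries lowered the counts, to 1272 to 1586 calls, 726 to 925 risers and 508 to 720 fallers. Each omission also leaves fewer samples. The largest drops in calls were to 1272 and 1418 without deficient library 1 and 3, and to 1408 and 1460 without resupplied library 2 and 3. For the groups of shoot genes below, likewise, mainly the omissions with the largest drops are given. The risers then numbered 764 and 726 without deficient library 1 and 3, and 794 and 784 without resupplied library 1 and 2. The fallers numbered 508 without deficient library 1, and 624 and 558 without resupplied library 2 and 3. Calls that held without each of the 6 libraries in turn numbered 573 of the risers (44.8%) and 423 of the fallers (43.2%).

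**Figure D1:**
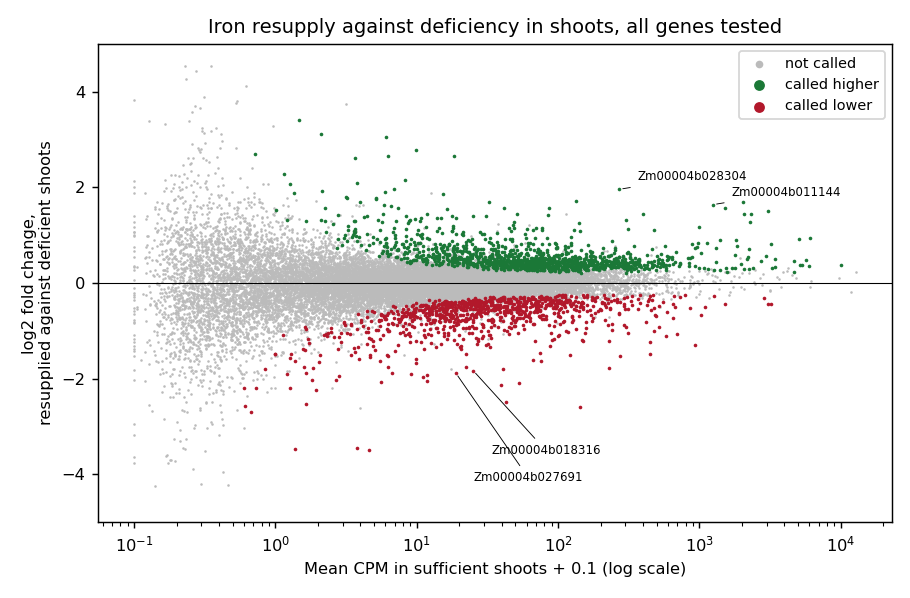
Each point is a gene tested in shoots, with its mean CPM in sufficient shoots plus 0.1 (log scale) against its log2 fold change in resupplied against deficient shoots. Green points rose and red points fell, the 4 genes named first in the text are labelled, and 48 genes lie beyond the axis limit of 5; risers crowd the right side at small fold changes.

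Nearly all of the calls had values that did not overlap between the groups of libraries. CPM values of the 3 resupplied and the 3 deficient libraries did not overlap for 7349 genes (27.9% of those tested), 3794 of them higher (14.4%) and 3555 lower (13.5%) after resupply. They did not overlap for 1276 of the 1278 risers and 979 of the 980 fallers, a share that the choice by the same contrast largely fixes. The median standard error of the log2 fold change was 0.09 for risers and 0.12 for fallers, against 0.14 for all genes tested. The choice of calls by this contrast also favours small standard errors.

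The genes that rose held 15.8 ± 0.451% of all counts in deficient shoots (SD, n = 3) and 21.4 ± 0.404% in resupplied shoots. In sufficient shoots they held 21.8% on average, with libraries at 21.5 to 22.3%. The genes that fell held 8.04 ± 0.203% of counts in deficient shoots, 5.1 ± 0.133% in resupplied shoots and 6.55% in sufficient shoots, with the sufficient libraries at 6.36 to 6.76%. These lists were chosen on the contrast itself, so the shares describe their size and are not a test. Highly counted genes weigh most in such a sum. The median CPM of the risers was 63.7 in sufficient, 51 in deficient and 70.9 in resupplied shoots, and that of the fallers was 28.6, 32.2 and 21.2.

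The 3 shoot contrasts share libraries and are given side by side for the same genes. For the 1278 risers, the median log2 fold change was 0.47 in resupplied against deficient shoots, -0.35 in deficient against sufficient shoots and 0.17 in resupplied against sufficient shoots. For the 980 fallers, these medians were -0.58, 0.13 and -0.46. Over all genes tested they were 0, 0.01 and 0. For the 128 genes that rose at least 2-fold the medians were 1.32, -0.91 and 0.47, and for the 163 that fell at least 2-fold they were -1.29, 0.49 and -0.86. In median, the fallers stood further below their sufficient level after resupply than they had stood above it under deficiency. The lists were chosen on the resupplied and deficient values that enter these medians. The medians therefore describe the lists and are not a test.

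Among the identifiers that changed by at least 2-fold, reached 10 CPM in the higher group and showed no overlap between libraries, 79 rose and 93 fell, and the pair with the smallest adjusted p in each direction is described. Zm00004b028304 had 60.6, 88.8 and 71.1 CPM in the deficient libraries and 278, 308 and 273 CPM in the resupplied ones. In sufficient shoots it had 276, 254 and 284 CPM. The resupplied and sufficient libraries lay together, and the 3 deficient libraries lay far below both. Its log2 fold change on resupply was 1.96 ± 0.12 (SE, edgeR adjusted p = 5.8e-06), and against sufficient shoots the resupplied level differed by 0.08 on the log2 scale (adjusted p = 0.75).

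Zm00004b011144 was a far more highly counted gene with a similar course. Deficient shoots had 327, 447 and 346 CPM, resupplied shoots had 1130, 1200 and 1150 CPM and sufficient shoots had 1270, 1200 and 1280 CPM. The deficient libraries did not overlap with either other group. The log2 fold change on resupply was 1.64 ± 0.10 (SE, edgeR adjusted p = 6.5e-06), and the resupplied level differed from the sufficient one by -0.1 (adjusted p = 0.6).

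Zm00004b018316 went the other way. It had 87, 77.9 and 85.2 CPM in deficient shoots, 25.3, 23.1 and 22.2 CPM in resupplied shoots and 23.1, 24.4 and 27.5 CPM in sufficient shoots. Resupplied and sufficient libraries overlapped, and the deficient ones stood above both. Its log2 fold change was -1.83 ± 0.09 (SE, edgeR adjusted p = 2.5e-06), with -0.09 against sufficient shoots (adjusted p = 0.63). It also fell in roots, with a log2 fold change of -1.54 ± 0.11 (edgeR adjusted p = 5e-05). The difference between organs was not called (adjusted p = 0.47).

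Zm00004b027691 fell past its sufficient level. It had 34.3, 36.9 and 39.4 CPM in deficient shoots, 9.99, 9.93 and 10 CPM in resupplied shoots and 19.5, 17 and 19.9 CPM in sufficient shoots. The 3 groups were separate, with the resupplied libraries lowest. The log2 fold change was -1.88 ± 0.10 (SE, edgeR adjusted p = 2.5e-06) on resupply, and -0.91 ± 0.1 (adjusted p = 0.00041) against sufficient shoots. This gene also fell in roots, by -1.51 ± 0.21 on the log2 scale (edgeR adjusted p = 0.0032). The difference between organs was not called (adjusted p = 0.62). The risers Zm00004b028304 and Zm00004b011144 were not called in roots (edgeR adjusted p = 0.082 and 0.95).

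**Figure D2:**
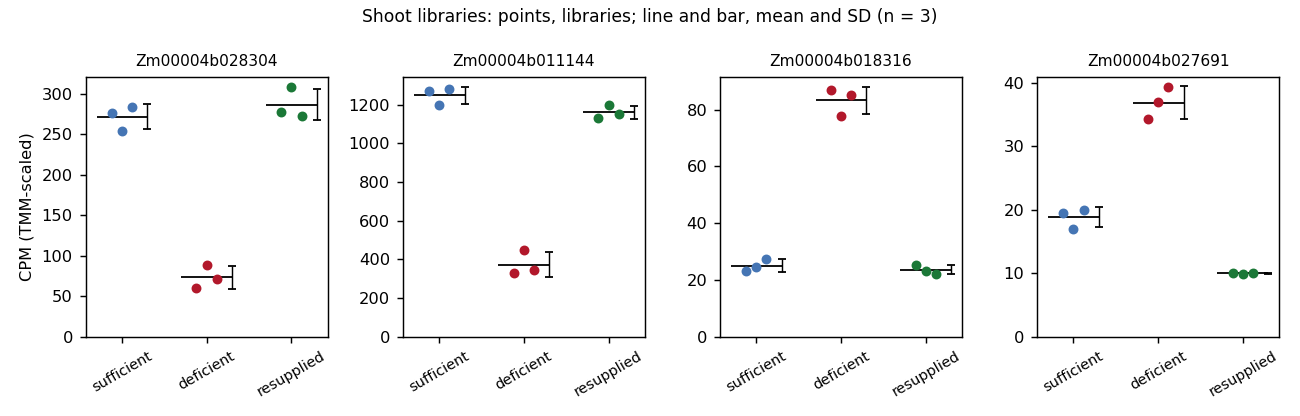
CPM after TMM scaling in each shoot library (points) with the mean and SD of 3 libraries (line and bar) for the 2 rising and 2 falling identifiers. The deficient libraries stand apart from the other groups for each identifier, and Zm00004b027691 lies lower in resupplied than in sufficient shoots.

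Rises were frequent among the genes with the most counts in shoots. Genes were ranked by mean CPM in sufficient shoots, which are in neither arm of the contrast. CPM is not corrected for gene length, so the rank is by counts and not by number of transcripts. Of the 100 genes at the top of the rank, with 1020 to 12900 CPM, 45 rose and 7 fell. Over all genes tested, 4.86% rose and 3.72% fell. The median log2 fold change of the 100 was 0.24. Among them 7 rose by at least 2-fold and 0 fell by as much, against 0.486% and 0.619% of all genes tested. Without deficient library 3 or resupplied library 2, 4 of the 100 fell. With total-count scaling 37 of the 100 rose and 9 fell, with a median log2 fold change of 0.16. These genes held 16.6 to 17.3% of counts in deficient shoots, 18.3 to 19.4% in resupplied shoots and 22.9 to 24.3% in sufficient shoots. The resupplied libraries lay above all deficient ones. The genes were chosen for high counts in the sufficient libraries, which favours a high share there, so the sufficient share is no comparison with the other groups. The difference of 2.03 percentage points between resupplied and deficient shoots had p = 0.1 in a two-sided exact permutation test, the smallest p that 3 against 3 libraries can give.

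The share of calls grew with level. The genes tested were divided by this rank into 10 level classes of equal size, with class 10 the highest. In class 1, 0.152% rose and 0.38% fell, where the median standard error of the log2 fold change was 1. In class 10, from 82.7 CPM, 19.9% rose and 7.94% fell, with a median standard error of 0.08. Class 8 was the lowest in which risers outnumbered fallers, at 140 against 121. Over classes 1 to 8, 519 of 21054 genes rose (2.47%) and 631 fell (3%). Over classes 9 and 10, from 46.8 CPM, 759 of 5264 rose (14.4%) and 349 fell (6.63%). Total-count scaling turned the order in the upper classes, with 538 higher and 581 lower, and gave 345 higher and 990 lower in the other classes. In classes 1 to 8, leaving out deficient library 1 or 3 left 299 and 280 risers, and leaving out resupplied library 1, 2 or 3 left 308, 309 and 334. The fallers there numbered 303 and 403 without deficient library 1 and 2, and 384 and 341 without resupplied library 2 and 3. In classes 9 and 10, risers numbered 465 and 446 without deficient library 1 and 3, and 484 and 475 without resupplied library 1 and 2. Fallers numbered 204 without deficient library 1 and 217 without resupplied library 3. The part of depth in the growth of the share was not tested.

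**Figure D3:**
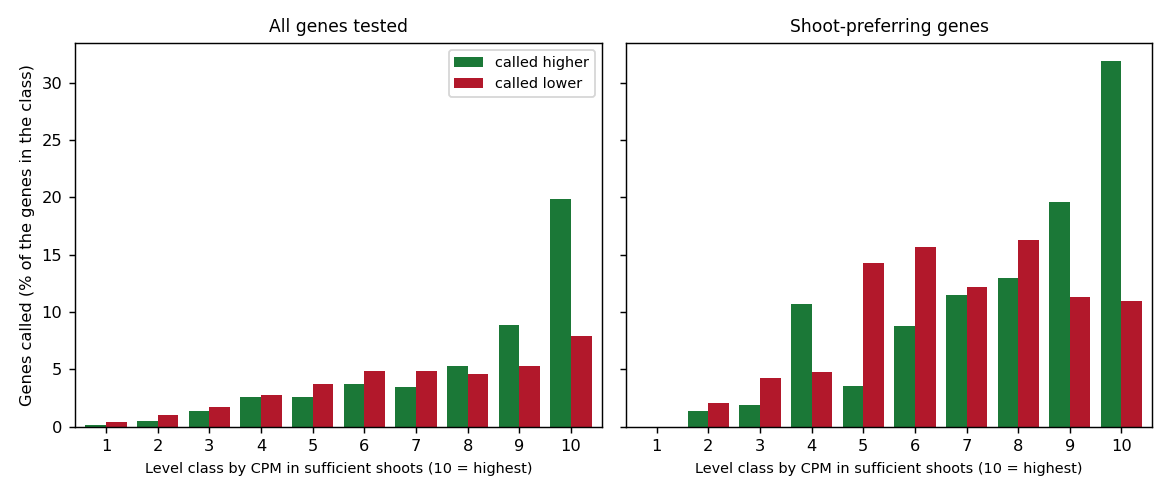
Share of genes called higher (green) and lower (red) in resupplied against deficient shoots, in percent of the genes of each level class by CPM in sufficient shoots, for all genes tested and for shoot-preferring genes. In class 10, 19.9% of all genes and 31.9% of shoot-preferring genes were called higher; with total-count scaling falls outnumber rises over classes 9 and 10 of all genes.

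Genes that prefer shoots were called more often than other genes. Of 2186 shoot-preferring genes tested, 374 rose (17.1%) and 227 fell (10.4%), against 893 (3.87%) and 738 (3.2%) of 23051 genes with neither preference. Of 1081 root-preferring genes 11 rose and 15 fell, and their median standard error was 0.65, against 0.12 for shoot-preferring genes. Without deficient library 3, resupplied library 1 or resupplied library 2, 240, 244 and 248 shoot-preferring genes rose. Without deficient library 1 or resupplied library 3, 145 and 149 fell. The median log2 fold change of shoot-preferring genes was 0.05, or -0.02 with total-count scaling. Their share of all counts was 29.3 to 30.6% in deficient and 30.5 to 32.8% in resupplied shoots. It was 36.7 to 39.1% in sufficient shoots, where the choice of genes favours a high share. The deficient and resupplied libraries overlapped (two-sided exact permutation p = 0.3).

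Shoot-preferring genes were called in different directions at different levels. In classes 9 and 10, 289 of 1021 rose (28.3%) and 113 fell (11.1%), with a median log2 fold change of 0.12. In classes 5 to 8, 61 of 639 rose (9.55%) and 94 fell (14.7%), with a median of -0.04. The order did not follow level throughout. Class 7 was nearly even, with 18 higher and 19 lower. In class 4, 18 of 169 rose (10.7%) and 8 fell (4.73%). Class 2 had 2 higher and 3 lower, and class 3 had 4 higher and 9 lower. Genes without shoot preference in classes 5 to 8 gave 337 higher (3.41%) and 382 lower (3.86%) of 9888, and those in classes 9 and 10 gave 470 higher (11.1%) and 236 lower (5.56%) of 4243. With total-count scaling the shoot-preferring counts were 236 higher and 164 lower in the upper classes, and 50 higher and 125 lower in classes 5 to 8. In the upper classes, risers numbered 183 without deficient library 3, and 185 and 188 without resupplied library 1 and 2, and fallers numbered 75 without deficient library 1 and also without resupplied library 3. In classes 5 to 8, fallers numbered 56 without deficient library 1 and 57 without resupplied library 3, and in the latter case risers also numbered 57.

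Most shoot calls had no counterpart among the calls in roots, whose libraries are separate. In roots, 938 of 26577 genes were called on resupply (3.53%), 475 higher (1.79%) and 463 lower (1.74%). Of 25142 genes tested in both organs, 120 rose in both and 83 fell in both. The 120 were 9.62% of the shoot risers and 26.5% of the root risers, and the 83 were 8.91% of the shoot fallers and 19.7% of the root fallers. Another 7 rose in shoots and fell in roots, and 14 fell in shoots and rose in roots. The median log2 fold change of the 120 was 0.53 in shoots and 0.55 in roots, and that of the 83 was -0.77 and -0.84. The shoot change was the larger in size for 41 of the 120 and 25 of the 83, and 9 of these genes had the organ difference called. DESeq2 called 2205 genes in roots, and 290 higher and 164 lower in both organs. Leaving out deficient root library 1, 2 or 3 gave 407, 376 and 1415 root calls, and leaving out resupplied root library 1, 2 or 3 gave 609, 457 and 603. Genes that rose in both then numbered 30, 30, 68, 33 and 68 without deficient root library 1 and 2 and resupplied root library 1, 2 and 3. They numbered 74, 79 and 75 without deficient shoot library 1, deficient shoot library 3 and resupplied shoot library 3, and 66 in a fit with the replicate number as a block.

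The shoot risers had a median log2 fold change of 0.14 in roots, and the fallers one of -0.13, with 0 for all genes tested in both. The direction was the same in both organs for 67.7% of the shoot calls and for 59.4% of all genes tested. Across all these genes Pearson's r of the log2 fold changes was 0.1 and Spearman's rho 0.22, as a description, since genes are not independent replicates. Of the genes that changed by at least 2-fold in shoots, 18 of 119 risers and 29 of 142 fallers were called in the same direction in roots.

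**Figure D4:**
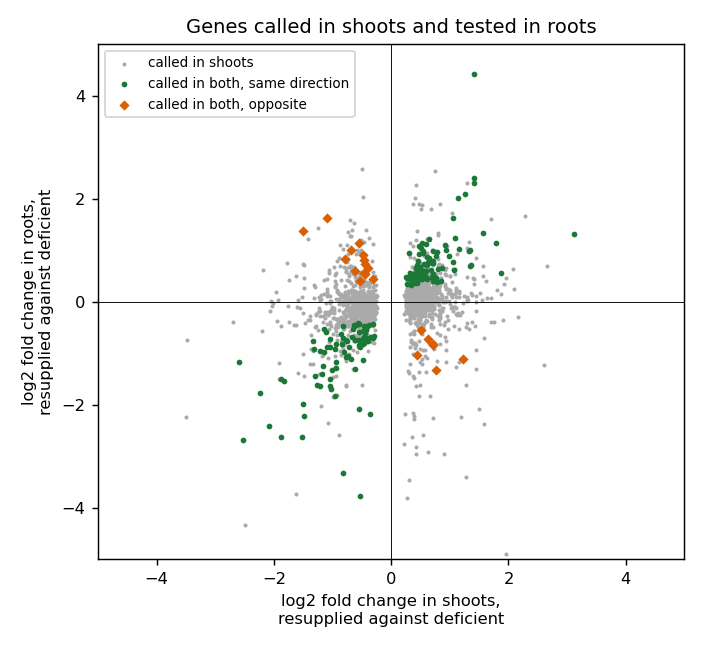
Log2 fold change in shoots against log2 fold change in roots, resupplied against deficient, for genes called in shoots and tested in roots; 19 of them lie beyond the axes. Green points were called in the same direction in both organs (120 higher, 83 lower) and orange diamonds in opposite directions (21 genes).

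Among the genes called alike in both organs, 4 that rose and 13 that fell met the limits of 2-fold and 10 CPM without overlap in both. Zm00004b001189 had 64, 88 and 77.8 CPM in deficient and 157, 162 and 169 CPM in resupplied shoots. In roots it had 110, 110 and 104 CPM under deficiency and 270, 242 and 231 CPM after resupply. All resupplied libraries lay above all deficient ones in both organs. The log2 fold changes were 1.09 ± 0.11 in shoots (SE, edgeR adjusted p = 0.00013) and 1.23 ± 0.09 in roots (adjusted p = 5e-05).

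Zm00004b023087 had 37.3, 64.8 and 47 CPM in deficient and 141, 147 and 151 CPM in resupplied shoots. The resupplied shoot libraries also lay above the sufficient ones, which had 92.4, 86 and 78.9 CPM. The root libraries had 17.1, 21.5 and 21.8 CPM under deficiency and 51.4, 48.7 and 49.6 CPM after resupply. The log2 fold changes were 1.56 ± 0.16 in shoots and 1.34 ± 0.13 in roots (SE, edgeR adjusted p = 0.00013 and 0.00029). The authors' deposited tables give 0.9 ± 0.2 (SE) in shoots, which is under 2-fold, and 1.35 ± 0.13 in roots.

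Zm00004b019462 had 764, 618 and 630 CPM in deficient and 280, 246 and 193 CPM in resupplied shoots, below the 494, 422 and 419 CPM of sufficient shoots. In roots it had 176, 165 and 163 CPM under deficiency and 33.4, 36.8 and 36.8 CPM after resupply. In both organs all resupplied libraries lay below all deficient ones. The sufficient root libraries, at 34.6, 41.1 and 41.7 CPM, overlapped with the resupplied root libraries. The log2 fold changes were -1.48 ± 0.13 in shoots and -2.21 ± 0.1 in roots (SE, edgeR adjusted p = 4.5e-05 and 1.4e-06), and the difference between organs was 0.75 ± 0.18 (adjusted p = 0.049). That last call was lost under most alternatives, with an adjusted p of 0.067 in the fit with the replicate block and 0.055 to 0.13 when a library was left out, except deficient shoot library 1 (0.038) or resupplied shoot library 3 (0.018).

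Zm00004b001672 had 94.6, 92 and 93.3 CPM in deficient and 42.7, 41.8 and 36.5 CPM in resupplied shoots, with 67.1, 67.7 and 69.8 CPM in sufficient shoots. The root libraries had 98.5, 110 and 88.8 CPM under deficiency and 27.2, 34.5 and 32.4 CPM after resupply. In shoots the sufficient libraries lay between the other groups, which did not overlap. The log2 fold changes were -1.21 ± 0.08 in shoots and -1.63 ± 0.12 in roots (SE, edgeR adjusted p = 5.8e-06 and 5e-05).

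The difference between the shoot and the root effect was itself tested over all 18 libraries. Of 27914 genes, 405 (1.45%) were called, 221 with the higher effect in shoots (0.792%) and 184 with the lower effect in shoots (0.659%). Of the shoot calls tested in both organs, 212 (9.72%) had this difference called. They were 103 risers with the higher and 1 with the lower effect in shoots, and 101 fallers with the lower and 7 with the higher effect in shoots. All 21 genes called in opposite directions were among them. For the other shoot calls without a root call, a different effect was not shown. Leaving out deficient shoot library 1 or 3 gave 257 and 245 calls, leaving out resupplied shoot library 2 gave 241, and leaving out deficient root library 2 gave 236. DESeq2 called 1127 genes for this difference, and 576 were called by edgeR without deficient root library 3.

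By the same limits of size and level, 21 risers and 17 fallers had the organ difference called. Zm00004b037916 had 163, 167 and 140 CPM in deficient and 333, 369 and 325 CPM in resupplied shoots, and 9.63, 10.1 and 9.61 CPM in deficient and 7.37, 8.13 and 8.62 CPM in resupplied roots. In shoots the groups were apart with the resupplied libraries higher, and in roots the resupplied ones were the lower. Its log2 fold change was 1.13 ± 0.09 in shoots and -0.25 ± 0.17 in roots (SE, edgeR adjusted p = 3e-05 and 0.49), and the difference was 1.41 ± 0.2 (adjusted p = 0.0021).

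Zm00004b003953 had 26.6, 34.5 and 24.9 CPM in deficient and 63.7, 74.3 and 61.8 CPM in resupplied shoots. In roots it had 24.2, 28.4 and 21.7 CPM under deficiency and 22.8, 24.9 and 23.4 CPM after resupply. The root groups overlapped and the shoot groups did not. The log2 fold change was 1.22 ± 0.13 in shoots (SE, edgeR adjusted p = 0.00019) and -0.03 ± 0.12 in roots (adjusted p = 0.93), with a difference of 1.28 ± 0.19 (adjusted p = 0.0029).

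Zm00004b035723 had 163, 143 and 137 CPM in deficient and 51.1, 50.2 and 44.5 CPM in resupplied shoots. The root libraries had 33, 30.8 and 27.6 CPM under deficiency and 30, 26.6 and 26.1 CPM after resupply. The shoot groups were far apart, and the root groups overlapped. The log2 fold change was -1.6 ± 0.1 in shoots (SE, edgeR adjusted p = 5.8e-06) and -0.11 ± 0.12 in roots (adjusted p = 0.69), with a difference of -1.46 ± 0.16 (adjusted p = 5e-04).

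Zm00004b013608 had 18.1, 16 and 16.7 CPM in deficient and 4.14, 5.21 and 3.6 CPM in resupplied shoots, where sufficient shoots had 12, 9.81 and 10.9 CPM. In roots it had 15.8, 17.6 and 14.5 CPM under deficiency and 18.5, 19.8 and 15.1 CPM after resupply. Its level in deficient shoots and deficient roots was alike, and the resupplied shoot libraries were lower than the other libraries of both organs. The log2 fold change was -1.97 ± 0.15 in shoots (SE, edgeR adjusted p = 1.7e-05) and 0.19 ± 0.16 in roots (adjusted p = 0.6), with a difference of -2.13 ± 0.23 (adjusted p = 5e-04).

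**Figure D5:**
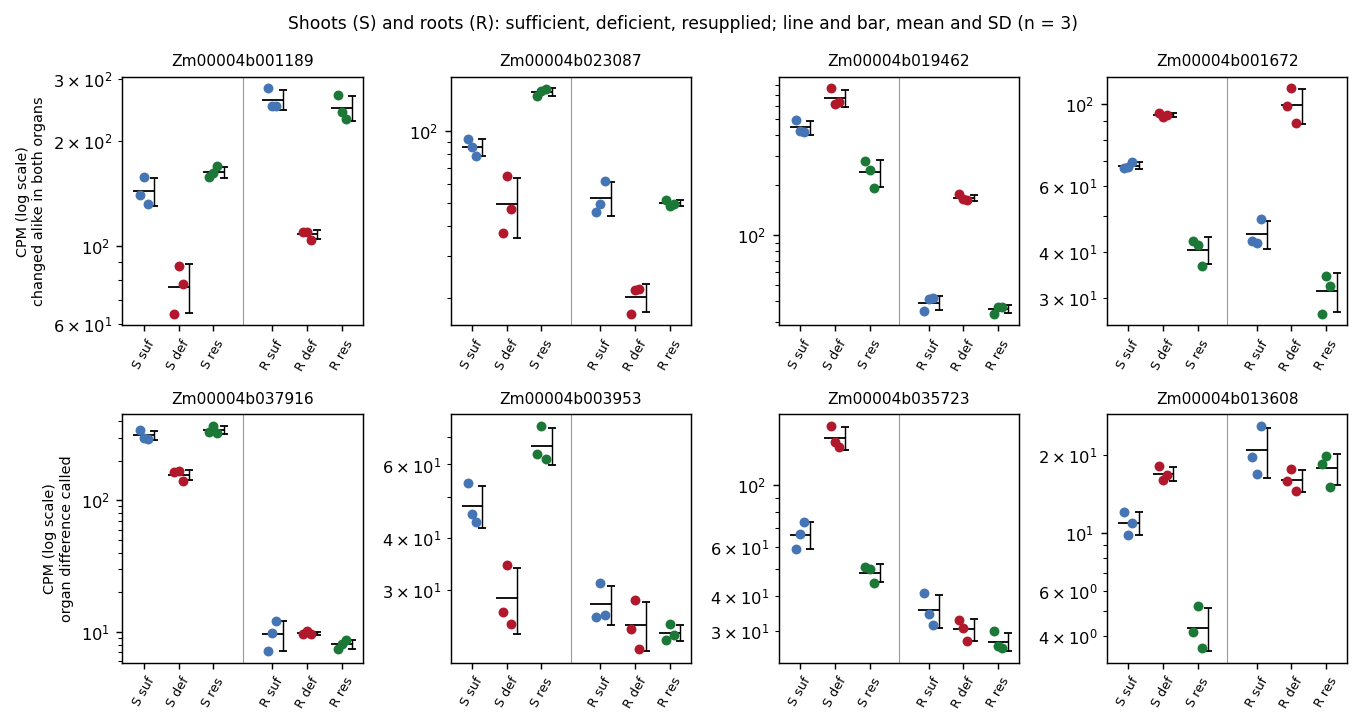
CPM (log scale) in each library of shoots (S) and roots (R) under sufficiency, deficiency and resupply, with the mean and SD of 3 libraries. The upper 4 identifiers were called in the same direction in both organs, and the lower 4 were called in shoots with the organ difference called.

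A few genes were counted in only one of the groups. With 0 counts in all 3 libraries of one group and at least 10 in each of the other, 5 genes appeared after resupply and 4 disappeared. Of these 9 genes, 8 were called, which the choice by the same contrast largely fixes, and their counts in the group with signal ran from 11 to 176. Zm00004b022943, chosen after the values were seen as the gene with the most counts, had 0, 0 and 0 counts in deficient and 137, 176 and 144 in resupplied shoots. Sufficient shoots had 139, 189 and 5 counts, so that 1 sufficient library was also low. Among resupplied roots its counts also varied, at 382, 109 and 17. Set against a floor of 3 counts over the group, its level in shoots was 154-fold higher after resupply (edgeR adjusted p = 0.0041). The counts are estimates and the floor is a setting, so this fold is not a strict lower bound. The authors' deposited table gives Zm00004b022943 a log2 fold change of 0.06 ± 0.06 (SE) with no adjusted p and a base mean of 2.15, far from these counts, so the change rests on the deposited counts alone. Zm00004b000557, also chosen after the values were seen, had 16, 27 and 62 counts in deficient and 0, 0 and 0 in resupplied shoots. Against the same floor this was 34.5-fold lower (edgeR adjusted p = 0.037). The authors' deposited table gives Zm00004b000557 a log2 fold change of -0.5 ± 0.15 (SE), also with no adjusted p. Its roots had 900, 431 and 914 counts under deficiency and 1413, 3076 and 2117 after resupply. The root log2 fold change of 1.53 ± 0.5 (SE) was not called (edgeR adjusted p = 0.12). The shoot call for this gene was lost without each of the 6 libraries (adjusted p = 0.074 to 0.13) and with the replicate block (0.067).

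The authors' deposited table of the same comparison called 3952 of 24423 genes with an adjusted p (16.2%), 2190 higher (8.97%) and 1762 lower (7.21%). Of the 2246 edgeR calls with an adjusted p in the authors' deposited table, 2208 (98.3%) were called there in the same direction and 0 in the opposite one. In the other direction, 55.9% of the calls in the authors' deposited table were called alike by edgeR. Fold changes in the authors' deposited table were smaller, with a median ratio of 0.935 to those of edgeR, and 148 calls reached 2-fold there.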

How the data were processed

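The study holds 18 RNA-seq libraries. The authors deposited estimated counts per gene for each library. Trim Galore, HISAT2, StringTie and the comparison tool DESeq2 were used, per the submitters' processing notes. Tool versions, genome release: not given in the sources used here. These deposited estimated counts were whole numbers, so rounding changed 0 values. Per the file headers, the authors' deposited comparison tables give a base mean (a normalised signal), the log2 fold change and its error, the Wald score and a p-value with its adjusted value.

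Tests on the counts used edgeR 4.0.16 under R 4.3.3 (TMM scaling, filterByExpr, quasi-likelihood F-test, Benjamini-Hochberg adjusted p under 0.05), with the 9 libraries of an organ in 1 fit and group as the only term. The organ difference was a contrast over all 18 libraries. Standard errors came from the log2 fold change and the F statistic. CPM was scaled by TMM over the 18 libraries. The steps were tested on simulated data. Identifiers were named by a rule: the 2 rising and 2 falling calls with the smallest adjusted p among changes of at least 2-fold that reached 10 CPM in the higher group and showed no overlap between libraries, for shoots, for both organs and for the organ difference. Identifiers outside the rule are said to be chosen after their values were seen. The maize gene lists and marker genes intended for this comparison could not be used, since no identifier matched the 49888 genes of the name table (B73). The comparison, groups and rule were chosen with earlier results of these data known. Alternatives covered scaling, filters, DESeq2 1.42.0, a robust fit, a replicate block, counts divided by 4 and organ preference limits. They also covered a fit on only the 6 libraries compared and leaving out each library.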

Additional observations from a re-analysis of the deposited data

Results flagged for a closer look

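The resupply effect differed between shoots and roots for 405 of 27914 genes (edgeR quasi-likelihood test of the difference, Benjamini-Hochberg adjusted p under 0.05). The difference of log2 fold change, shoots less roots, was 1.41 for Zm00004b037916 and 1.28 for Zm00004b003953, both higher in the 3 resupplied shoot libraries than in any deficient one. It was -1.46 for Zm00004b035723 and -2.13 for Zm00004b013608, both lower in the 3 resupplied shoot libraries than in any deficient one. For Zm00004b019462, which fell in both organs, it was 0.75 (adjusted p = 0.049), a call that was lost under most alternatives.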

How the results depend on the processing

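Total-count scaling gave 1571 shoot fallers, 345 risers and 990 fallers in level classes 1 to 8 and 581 fallers in classes 9 and 10, and turned the median log2 fold change of shoot-preferring genes to -0.02. DESeq2 called 3119 genes in shoots, 1741 higher and 1378 lower, against 2258 in the main fit. It also called 2205 genes in roots, 1127 for the organ difference, and 290 higher and 164 lower in both organs. A fit on only the 6 libraries compared in an organ called 2524 shoot genes, 1336 higher and 1188 lower. In both organs this fit called 87 genes higher and 90 lower. Leaving out 1 library gave 1272 to 1586 shoot calls, 726 to 925 risers, 508 to 720 fallers and 234 to 286 changes of at least 2-fold. It gave 376 to 1415 root calls, 236 to 576 organ differences, 30 to 179 genes higher in both organs and 56 to 100 lower in both. Shoot-preferring risers ranged from 240 to 357 and fallers from 145 to 190, and among the 100 genes with most counts 32 to 41 rose and 4 to 6 fell. In classes 1 to 8 risers ranged from 280 to 356 and fallers from 303 to 452, and in classes 9 and 10 from 446 to 569 and from 204 to 268. Shoot-preferring genes gave 42 to 57 risers and 56 to 79 fallers in classes 5 to 8, and 183 to 285 and 75 to 93 in classes 9 and 10. The difference in the share of counts of the top 100 genes ranged from 1.82 to 2.4 percentage points. The cause of these shifts was not tested; each omission also leaves fewer samples.

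Deviations of same-numbered deficient and resupplied shoot libraries correlated at 0.04, -0.1 and 0.05. With 3 libraries a group, these values cannot settle whether a replicate number marks paired libraries. With the replicate block, 2369 shoot genes, 628 root genes and 334 organ differences were called, and 66 genes rose in both organs. The 12 identifiers named by the rule kept direction and call of the resupply effect in shoots under the alternatives run, as did the 4 named for both organs in roots and the 4 named for the organ difference in that difference. The choice by smallest adjusted p in these same libraries favours this. Over all shoot calls, 44.8% of risers and 43.2% of fallers held without each of the 6 libraries in turn. The organ difference of Zm00004b019462 kept its direction at 0.62 to 0.89 but lost its call with size factors of the DESeq2 kind (adjusted p = 0.054), total counts (0.068), no filter (0.053), the replicate block (0.067) and without 10 of the 12 libraries. Of those chosen after their values were seen, Zm00004b000557 lost its shoot call as described and its organ difference with counts divided by 4 (adjusted p = 0.08) and without single libraries (0.05 to 0.074). Zm00004b028305 lost its call with total counts (0.13), with no filter (0.051) and without 5 of the 6 libraries (0.11 to 0.16). Genes with few counts had wide errors, and a change there may not be detectable with 3 libraries a group.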

Other observations

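Consecutive identifiers are given as counts, since the files do not show that number order is genome order, and reads shared between similar neighbours were not tested. Of 926 risers whose next identifier was tested, 7.56% were followed by another riser, against 4.86% of all genes tested, and of 671 fallers 7.9% were followed by a faller, against 3.72%. Runs of at least 3 numbered 6 for risers and 5 for fallers. The run from Zm00004b028304 to Zm00004b028306, chosen after its values were seen, had log2 fold changes of 1.96, 0.25 and 1.18 (edgeR adjusted p = 5.8e-06, 0.046 and 1.7e-05). The mean levels of Zm00004b028305 were 251 CPM in deficient and 298 CPM in resupplied shoots, and those of Zm00004b028306 were 430 and 973 CPM.

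The smallest adjusted p in the authors' deposited table belonged to Zm00004b030197, with a log2 fold change of 4.76 ± 0.19 (SE) and an adjusted p of 1.1e-134. The deposited counts of Zm00004b030197 were 0, 0 and 0 in deficient, 581, 0 and 0 in resupplied and 0, 672 and 617 in sufficient shoots. edgeR gave it an adjusted p of 0.15. Its base mean in the authors' deposited table was 376, higher than these deposited counts would average. The reason for that difference was not tested. Of the 148 calls of at least 2-fold in the authors' deposited table, 7 were not called by edgeR.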
